A study of Homo sapiens with 16 samples.

Results

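The genes for the proteins of the cytosolic ribosome were followed through a BRD9 deletion time course in G401 cells, a kidney rhabdoid tumor line that lacks functional SMARCB1. The members were chosen by symbol alone: all genes named RPL or RPS with a number and at most an A or X after it, plus RPLP0, RPLP1, RPLP2 and RPSA. This gave 77 of 57820 gene rows, 46 of the large (60S) and 31 of the small (40S) subunit, and pseudogenes were left out by the rule. All 77 passed the filter on low counts, among 15027 genes tested. G401 cells with BRD9 deleted by CRISPR-Cas9 (BRD9 KO) were set against cells with a control guide to LacZ, a bacterial gene, on days 1, 2, 3 and 5, with 2 libraries in each of the 8 groups and 16 in all. BRD9 is a bromodomain subunit of the SWI/SNF chromatin remodeler, and the time course was made to separate primary from secondary effects of its loss. All cells carry the SMARCB1 mutation of the line. The study's methods call the libraries of a group biological replicates. The sources used here do not say whether these came from separate cultures, so p-values measure the spread between these libraries, nor from which event the days are counted or whether the cells were sorted or cloned.

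The cytosolic ribosome is built from rRNAs and ribosomal proteins, most of them present as a single copy, and its subunits are put together in the nucleolus before export. Most ribosomal protein mRNAs begin with a cytosine followed by a run of pyrimidines, the 5′ terminal oligopyrimidine (TOP) motif, through which mTORC1 and LARP1 control their translation and stability. Growing tumor cells spend much of their transcription on these genes, and free RPL5 and RPL11 can bind MDM2 and so raise p53.

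The starts of these genes are shown because they carry the feature the family is known for, in members that fell and in members that did not. RefSeq's promoter table (GRCh38.p14) held a start for 62 of the 77 members. Each line below has 15 bases before and 15 bases from the annotated start, 5′ to 3′ on the gene's strand, with the run of C and T that begins at the first transcribed base in capitals.
RPLP0 (chr12:120201097-120201126, minus strand): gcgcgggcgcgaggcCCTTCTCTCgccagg
RPL13 (chr16:89560667-89560696, plus strand): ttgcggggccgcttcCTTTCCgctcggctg
RPS23 (chr5:82278340-82278369, minus strand): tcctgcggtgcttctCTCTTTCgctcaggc
RPS19 (chr19:41860240-41860269, plus strand): ggaaaccccgtcgttCCCTTTCCCCTggct
RPS6 (chr9:19380222-19380251, minus strand): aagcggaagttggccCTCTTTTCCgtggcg
RPL22 (chr1:6199581-6199610, minus strand): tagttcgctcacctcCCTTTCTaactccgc
RPL28 (chr19:55385917-55385946, plus strand): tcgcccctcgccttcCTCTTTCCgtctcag
RPS7 (chr2:3575245-3575274, plus strand): gtttccgccctcctcCTCgcgctgtttccg
RPL4 (chr15:66504841-66504870, minus strand): tacagcgggagtggtaagcacttccttttc

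A C at the start with at least 4 C or T after it, read on the gene's strand, stood at 46 of the 62 matched members (74.2%), against 5.14% of 27305 genes in the table. The hexamer CGGAAG, on either strand within 250 bases before and 50 bases after the start, was in 64.5% of the matched members and 22.6% of all genes, and TATAAA, searched the same way, was in 8.06% and 14%. The start given for RPL4 has no pyrimidine at its first position, and the positions of the annotated starts were not tested. The 46 members with the TOP-like start had a median log2 fold change of -0.061 over days 3 and 5 (BRD9 KO over LacZ), the 16 without it -0.069, and the 15 with no entry -0.066.

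The libraries held 9185866 to 16560749 expected counts in BRD9 KO and 11252871 to 15430142 in LacZ cells. BRD9 RNA was lower in BRD9 KO libraries on every day (16.6 to 25.9 CPM, against 45.8 to 64.5 CPM in LacZ libraries), where CPM is a count scaled by the TMM-adjusted library total. SMARCB1 was at 0 in all but 1 library, which had 0.13 CPM. KRT8, KRT18 and VIM, keratins and vimentin that rhabdoid cells express together, were at 1503 CPM or more in all libraries. These markers differed between guides too: on day 5 KRT8 and KRT18 were higher by 0.532 and 0.534 on the log2 scale (adjusted p = 1.94e-14 and 5.84e-15) and VIM stood at -0.072 (adjusted p = 0.0171), with calls in the same directions on days 2 and 3, and their part in the results was not tested. Of the markers of other cells, PTPRC, CD3E, HBB and KDR were at 0 in all 16 libraries and CD14, CDH5, DCN and LUM did not exceed 0.16 CPM, while VWF (0.55 to 2.75 CPM) and PDGFRB were detected in all 16. PDGFRB, a fibroblast marker, was at 162 to 221 CPM in BRD9 KO and 190 to 232 CPM in LacZ libraries and was called lower over days 3 and 5 at -0.25 (adjusted p = 2.74e-07), and its part in the results was not tested. RNA was measured in bulk, so fewer cells of a kind and less RNA per cell cannot be told apart.

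Ribosomal protein mRNAs were among the most abundant in these cells. In TPM, a scale that divides by transcript length and so allows genes to be compared, 70 of the 77 members averaged at least 1000 over the 16 libraries, with a median of 1779.6. RPL17 and RPL8, both of the large subunit, were highest at 3675.2 and 3630.4 TPM, followed by RPS19 and RPS2 of the small subunit at 3431.2 and 3370.4 TPM. RPL17 ran from 3381.1 to 4150.7 TPM over the BRD9 KO and from 3493.9 to 4066.2 TPM over the LacZ libraries, and RPL8 from 3279.3 to 3827 TPM in BRD9 KO and from 3489.2 to 3860.5 TPM in LacZ libraries, so the ranges of RPL17 and RPL8 over the days overlap within each guide. The lowest were RPS26 at 24.2, RPL21 at 78.1, RPS28 at 607.6 and RPL22 at 649.5 TPM. RPS26 and RPL21 lie far under the others. Named pseudogenes held 90.3% of the counts of RPL21 and its copies, but 5.88% of those of RPS26, and whether reads of RPS26 went to copies under other names was not traced.

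Together the 77 genes took 4.78% to 5.51% of all counts in BRD9 KO libraries and 4.9% to 5.52% in LacZ libraries. Their summed level on day 1 was 54969 and 55982 CPM in BRD9 KO cells, against 54925 and 55763 CPM in LacZ cells. The day 1 groups overlapped, and their means differed by 0.238%. On day 2 the sum was 47062 and 47848 CPM in BRD9 KO cells, against 48432 and 49406 CPM in LacZ cells. On day 3 it was 49932 and 50892 CPM in BRD9 KO cells, against 52469 and 52314 CPM in LacZ cells. On day 5 it was 49393 and 50274 CPM in BRD9 KO cells, against 52105 and 52550 CPM in LacZ cells. From day 2 on both BRD9 KO libraries lay below both LacZ libraries, and the BRD9 KO mean differed from the LacZ mean by -2.99%, -3.78% and -4.77% on days 2, 3 and 5. Both subunits showed this: on day 5 the 60S genes summed to 30980 ± 305 CPM in BRD9 KO cells and 32453 ± 129 CPM in LacZ cells, and the 40S genes to 18852 ± 319 CPM in BRD9 KO cells and 19874 ± 185 CPM in LacZ cells (SD, n = 2 each). The size of the difference depended on the scale. For the summed TPM of all members the BRD9 KO mean differed by -3.12%, -2.31% and -3.36% on days 2, 3 and 5. For their share of all counts it differed by -2.92%, -3.01% and -4.04%. With 2 libraries a side, an exact permutation test of a sum cannot reach p < 0.05, and none is given.

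**Figure D1:**
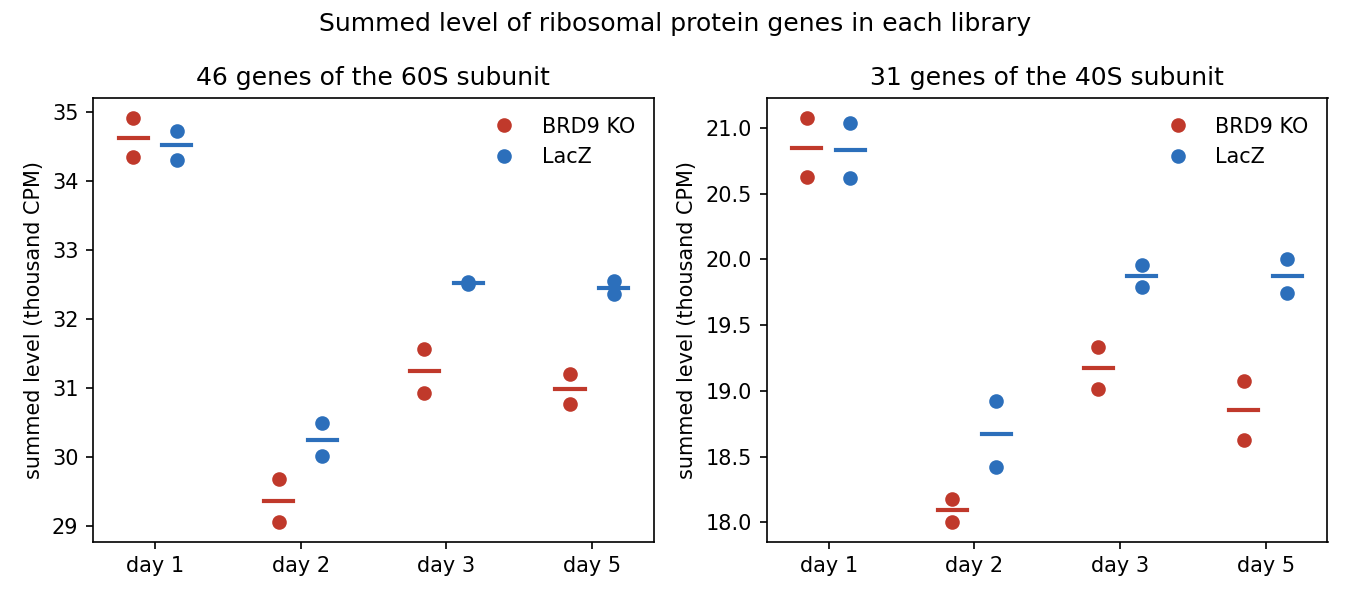
Summed TMM-normalized CPM (divided by 1000) of the 46 genes of the 60S subunit (left) and the 31 genes of the 40S subunit (right) on days 1, 2, 3 and 5. Each point is 1 library and each line a group mean (n = 2); the axes do not start at 0. The guides overlap on day 1, both sink on day 2, and from day 2 on both BRD9 KO points lie below both LacZ points.

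Day 2 was the low point for both guides. Relative to day 1, the summed level changed by -14.5% in BRD9 KO cells and by -11.6% in LacZ cells, and 74 of 77 members had a lower mean on day 2 in BRD9 KO cells, as did 72 in LacZ cells. The share of all or of abundant genes with a lower mean on day 2 is not given here. Whether the drop is particular to the members thus cannot be told from these counts. The sum was higher again on days 3 and 5 in both guides and stayed under its day 1 level. The day 2 drop of either guide was thus larger than the difference between guides on any day. A day effect and the handling of that day's samples cannot be told apart. The share of mitochondrially encoded RNA on day 2 was 5.979% ± 0.024 in BRD9 KO cells and 5.274% ± 0.0208 in LacZ cells (SD, n = 2 each), and its part in the day 2 values was not tested.

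Single genes were compared with edgeR's quasi-likelihood test over all genes tested, and a gene counts as called at an adjusted p (Benjamini-Hochberg) under 0.05. On day 1, 0 of the 77 members were called in either direction, where 0.266% of all genes were called lower and 0.273% higher. Both BRD9 KO libraries lay below both LacZ libraries in 10 members, against 20.6% of all genes, and above them in 17, against 20.4%. At an unadjusted p under 0.05 there were 5 higher and 2 lower members, against 1532 of 15027 genes in either direction. DESeq2 also called 0 members, and 44 lower and 43 higher over all genes. The median member changed by -0.0219%, with 39 fitted below 0 and 38 above. RPL3 and RPS2, the members with the highest CPM, had log2 fold changes of 0.036 and -0.049 (standard errors 0.014 and 0.018, adjusted p = 0.364 and 0.299).

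On day 2, 5 members fell and none rose at the threshold, against 1.58% of all genes called lower and 1.12% higher. The 5 are 6.49% of the members, under the 14.2% called lower among the 646 genes whose average log2 CPM was 8 or more, the members included (7.43% of these were higher). DESeq2 called 8 lower and 0 higher, against 174 lower and 101 higher over all 15027 genes. At an unadjusted p under 0.05, 26 members were lower and 1 was higher. In either direction these are 27 of 77 members, against 2077 of 15027 genes and 272 of 577 abundant genes other than members. The share of the members is thus under that of the abundant genes. The 5 called members included RPL8, RPS9, RPL5 and RPL13, with log2 fold changes between -0.068 for RPL5 and -0.092 for RPS9. RPL8, a protein of the peptidyl transferase region, had 1255.1 and 1295.6 CPM in BRD9 KO cells, against 1335.6 and 1377.5 CPM in LacZ cells (log2 fold change -0.089, standard error 0.018, adjusted p = 0.007). Without BRD9 KO replicate 1 of day 2 only 1 member was called, and without LacZ replicate 2 of day 2 the count was 0. Of all 77 members, 46 had both BRD9 KO libraries below both LacZ libraries on day 2, where 21.8% of all genes did, and 2 had both above, where 20.7% of all genes did.

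On day 3, 27 members fell, which is 35.1% of them, against 5.85% of all genes called lower. None was higher, against 4.59% of all genes, in edgeR or DESeq2 or at an unadjusted p under 0.05. Abundant genes are called more often than others: of the same 646 abundant genes 29.9% were called lower and 13.6% higher on day 3. The members' share called is thus close to that of abundant genes, with all of it downward. Without BRD9 KO replicate 1, LacZ replicate 1 or LacZ replicate 2 of day 3 fewer members were called, all lower. Fewer genes were then called over all genes too, in both directions. The median member had a log2 fold change of -0.058, a change of -3.91%, where the median over all genes was -0.0051%.

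On day 5, 31 members fell (40.3%), with 7.45% of all genes called lower and 31.7% of the abundant ones. No member was called higher, where 7.53% of all and 18.3% of abundant genes were, and the count was also 0 in DESeq2 and at an unadjusted p under 0.05. The median member stood at -0.067 and 73 of the 77 were fitted below 0. Both BRD9 KO libraries lay below both LacZ libraries in 55 members on day 3, against 25.9% of all genes, in 61 on day 5, against 27.2% of all genes, and in 50 members (64.9%) on both days, against 14% of all genes. The libraries of day 3 and day 5 are different ones, and 15 members were called on both days, which is 48.4% of the calls of day 5 and 55.6% of those of day 3. With 35.1% and 40.3% of the members called on days 3 and 5, some overlap arises without any agreement. Whether the overlap exceeded that was not tested. Members also moved together between replicates, with a median log2 difference of 0.024 between the 2 BRD9 KO libraries and 0.011 between the 2 LacZ libraries of day 5, so calls of different members are not independent of each other.

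**Figure D2:**
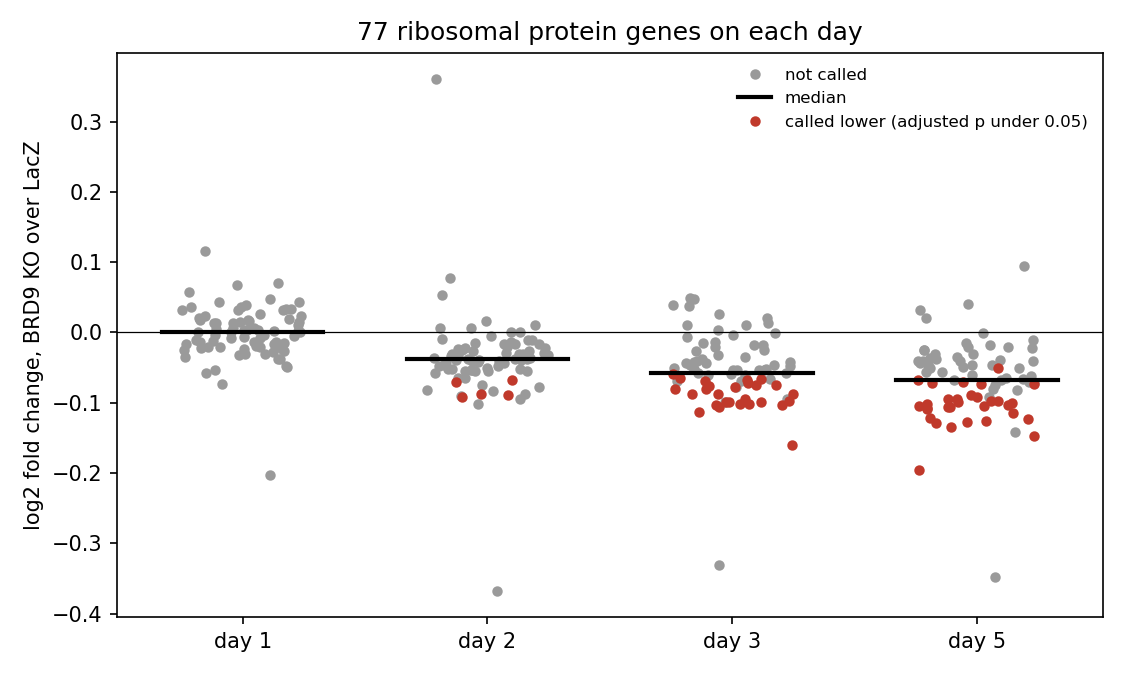
Log2 fold change (BRD9 KO over LacZ) of each of the 77 members on days 1, 2, 3 and 5. Red points were called lower by edgeR, grey points were not called, and black lines are medians. The medians run from about 0 on day 1 to -0.067 on day 5, and the points farthest from the medians include RPL21 and RPS26, whose counts are uncertain.

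With days 3 and 5 averaged, 51 of 77 members fell (66.2%) and none rose in edgeR, in DESeq2 or at an unadjusted p under 0.05. Over all genes 10.9% were called lower and 10.6% higher, and among abundant genes 42.3% were lower and 19.7% higher. Of the 60S members 30 of 46 fell, and of the 40S members 21 of 31. The median member changed by -4.32%, and an added requirement of an absolute log2 fold change over 0.2 left 0 calls. Limma-trend on TPM called 22 of the 51, and with a length trend removed, as described further on, 30 were lower and 4 were higher. Over all 15027 genes limma-trend called 680 lower and 854 higher, and the fit with the length trend removed 1652 and 1530. The main fit called 1643 lower and 1588 higher.

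RPLP0, the base of the acidic stalk that recruits elongation factors (ENSG00000089157, GRCh37 chr12:120634502-120639038), had the smallest p over these days. On day 3 it had 1494.3 and 1501.5 CPM in BRD9 KO cells, against 1619.2 and 1588.6 CPM in LacZ cells, and on day 5 it had 1503.7 and 1498.4 CPM in BRD9 KO cells, against 1635.6 and 1641.7 CPM in LacZ cells. All 4 BRD9 KO values lie below all 4 LacZ values, whereas the day 1 values overlap (1692.9 and 1724.2 CPM in BRD9 KO cells, 1731.1 and 1715.5 CPM in LacZ cells). The log2 fold change over days 3 and 5 was -0.113 (standard error 0.011, adjusted p = 2.99e-07). Of its partners, RPLP2 fell by 0.065 on the log2 scale (standard error 0.021, adjusted p = 0.0384), whereas RPLP1 and RPL12, which binds at the stalk base, stood at 0.008 and -0.006 (adjusted p = 0.809 and 0.819), and these differences between members were not tested.

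RPL4, RPL17, RPL23A, RPL35 and RPL39 line the tunnel through which the new chain leaves the ribosome or surround its exit. Over days 3 and 5, 4 of these 5 fell (80%, against 66.2% of all members and 42.3% of abundant genes). RPL4 (GRCh37 chr15:66790353-66816870) had 1474.3 and 1513.2 CPM in BRD9 KO cells on day 3, against 1596.8 and 1592.3 CPM in LacZ cells, and 1437.2 and 1478 CPM in BRD9 KO cells on day 5, against 1567.3 and 1577.3 CPM in LacZ cells. RPL4 thus differed by -0.102 on the log2 scale (standard error 0.012, adjusted p = 6.03e-06). RPL23A, which docks the signal recognition particle at the exit (GRCh37 chr17:27047003-27051377), had 292.8 and 307.2 CPM in BRD9 KO cells on day 3, against 341.3 and 328.1 CPM in LacZ cells, and 280.3 and 286.7 CPM in BRD9 KO cells on day 5, against 309 and 313.6 CPM in LacZ cells. Its log2 fold change of -0.147 was the lowest of all called members (standard error 0.022, adjusted p = 7.82e-05). RPL39 was not called at -0.021 (adjusted p = 0.723).

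RPL5 and RPL11 enter the large subunit together with the 5S rRNA, and 1 of the pair was called. RPL5 (GRCh37 chr1:93297570-93307481) had 881.3 and 886.3 CPM in BRD9 KO cells on day 5, against 946.6 and 952.2 CPM in LacZ cells, and fell by 0.088 on the log2 scale over days 3 and 5 (standard error 0.011, adjusted p = 1.08e-05). RPL11 had 738.8 and 739.4 CPM in BRD9 KO cells on day 5, against 743.1 and 745 CPM in LacZ cells. RPL11 was not called at -0.026 over days 3 and 5 (standard error 0.014, adjusted p = 0.217), and the difference between RPL5 and RPL11 was not tested. Of the 7 members known to bind MDM2, which are these and RPL23, RPL26, RPS3, RPS7 and RPS27A, 4 fell over days 3 and 5. This is 57.1%, against 66.2% of all members and 42.3% of abundant genes. RPS7 was among the few fitted above 0, at 0.025 (standard error 0.016, adjusted p = 0.289).

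RPL13 (GRCh37 chr16:89627085-89630950), a large subunit protein that is mutated in a skeletal dysplasia, was called on days 2, 3 and 5. On day 3 it had 884.3 and 889.3 CPM in BRD9 KO cells, against 958.2 and 960.3 CPM in LacZ cells, and on day 5 it had 959.6 and 942.7 CPM in BRD9 KO cells, against 1020 and 1038.5 CPM in LacZ cells. The 2 groups were apart on both days, and the log2 fold change over both was -0.114 (standard error 0.012, adjusted p = 1.24e-06). On day 3 it was the 1 member called by limma-trend on TPM, which called 205 of 15027 genes lower and 207 higher.

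In the small subunit RPS23, a decoding center protein (GRCh37 chr5:81569139-81574215), had 435.2 and 450.9 CPM in BRD9 KO cells on day 5, against 501.9 and 514.5 CPM in LacZ cells. This log2 fold change of -0.196 was the largest drop among members called on that day (standard error 0.026, adjusted p = 3.24e-05), and on day 3 RPS23 was not called at -0.078 (adjusted p = 0.0683). RPS19, which is needed to mature the 18S rRNA and is the gene most often mutated in Diamond-Blackfan anaemia (GRCh37 chr19:42364325-42376993), had 762.9 and 772.1 CPM in BRD9 KO cells on day 5, against 848.8 and 823.1 CPM in LacZ cells. RPS19 thus differed by -0.123 on the log2 scale (standard error 0.019, adjusted p = 0.000113). RPS2, at the mRNA entry, differed by -0.098 over days 3 and 5 (standard error 0.012, adjusted p = 1.08e-05). RPS6, the member that S6 kinase phosphorylates, had 1014.5 and 1052.2 CPM in BRD9 KO cells on day 5, against 1107.5 and 1096.1 CPM in LacZ cells, and over days 3 and 5 its log2 fold change was -0.081 (adjusted p = 0.00022). RPSA, the laminin receptor homolog, was called over days 3 and 5 at -0.049 (adjusted p = 0.0143) but on neither day alone (adjusted p = 0.104 on day 3 and 0.13 on day 5). Of the 20 members known as Diamond-Blackfan anaemia genes, 9 fell over days 3 and 5 (45%, against 66.2% of all members and 42.3% of abundant genes), with a median of -0.06.

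Not every member moved. Over days 3 and 5, 6 members were fitted above 0: RPLP1, RPS28, RPL28, RPS4X, RPS7 and RPL36A, named after their values were seen, at 0.008 to 0.067. RPL28 had 535.6 and 549.6 CPM in BRD9 KO cells on day 5, against 527.6 and 534.3 CPM in LacZ cells, with both BRD9 KO values above both LacZ values. RPS7 had 685.4 and 696.8 CPM in BRD9 KO cells, against 673.1 and 672 CPM in LacZ cells on day 5, again with no overlap. Neither passed the test. On day 5 both BRD9 KO libraries lay above both LacZ libraries in 4 of the 77 members (5.19%), against 27.3% of all genes. As the sequences above show, RPL28 has a TOP-like start and RPS7 has 3 pyrimidines at its start.

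**Figure D3:**
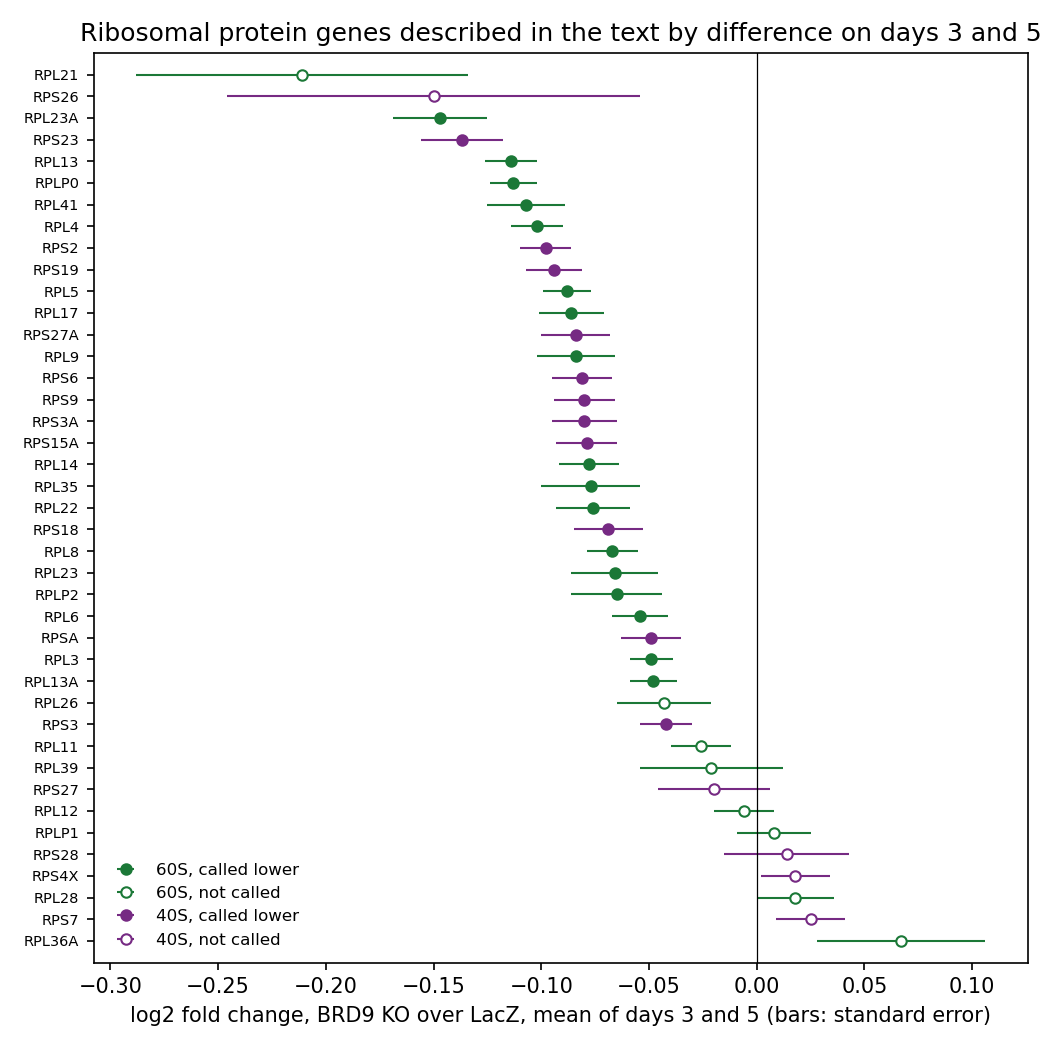
Log2 fold change (BRD9 KO over LacZ) of the members described in the text, averaged over days 3 and 5 and ordered from the lowest at the top, with standard errors as bars. Green points are 60S and purple points 40S genes, filled where edgeR called them lower. The filled points of both subunits mix along the order, and RPL21 and RPS26 have the widest bars.

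The members are short, and short genes as a class leaned the same way, so length was examined. Effective length was 231 to 1242 bases in the members (median 562) and had a median of 2044 bases over the genes tested. Over days 3 and 5 the log2 fold changes of 12348 other genes correlated with length at a Spearman coefficient of 0.1, as a description across genes that share libraries. Among the 77 members the coefficient had the opposite sign, at -0.209. The 2527 other genes of at most 1300 bases had a median log2 fold change of -0.026, against -0.064 in the members. When a smooth length trend, fitted in each library over the other genes, was removed, the median member moved to -0.033 over days 3 and 5 and 30 members stayed lower, all among the 51. RPL28, RPLP1, RPS7 and RPL36A were then called higher, by 0.039 to 0.107 on the log2 scale, so the one-sided direction of the calls holds only without this step. RPLP0 stood at -0.094 (adjusted p = 1.1e-06) and RPL23A at -0.114 (adjusted p = 0.000188) with the trend removed. The day 3 calls were the most affected, at 8 lower and 2 higher in place of 27 lower, while on day 5 there were 25 lower and 1 higher. Over all 15027 genes the same step gave 846 lower and 698 higher on day 3, against 879 and 690 without it. On day 5 it gave 1202 lower and 1111 higher, against 1119 and 1131. Whether the length trend is technical was not tested.

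**Figure D4:**
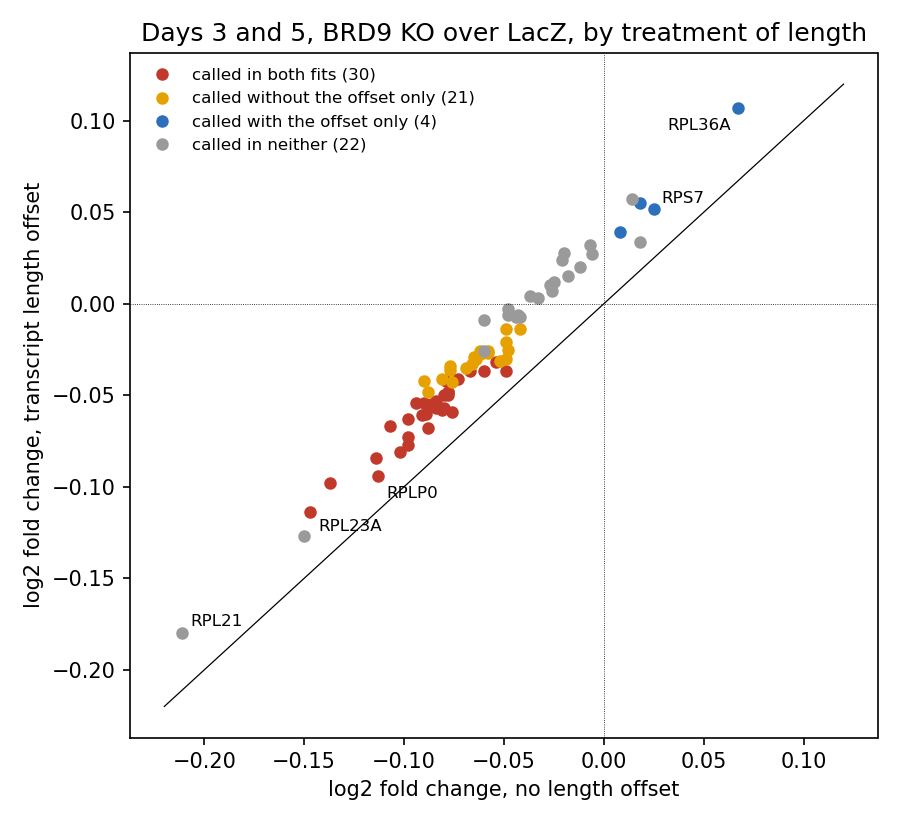
Log2 fold change (BRD9 KO over LacZ, days 3 and 5 averaged) of each member without (horizontal) and with (vertical) removal of the length trend; the line marks equal values. Nearly all points lie above the line, 30 are called in both fits (red), 21 only without the offset (yellow), 4 only with it (blue) and 22 in neither (grey).

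The study asked how effects change over time, and the difference between the mean effect of days 3 and 5 and that of days 1 and 2 was tested directly. It was negative in 68 of 77 members, with 16 called and all of them more negative late, against 3.41% of all genes called in the other direction, 4.03% in this one and 21.5% of the abundant ones. At an unadjusted p under 0.05, 31 were lower and 0 higher, and DESeq2 called 15 lower and 0 higher. In either direction 2843 of 15027 genes and 318 of 577 abundant genes other than members had such an unadjusted p. DESeq2 called 363 lower and 268 higher over all genes. The 16 are 20.8% of the members, close to the share of abundant genes. Limma-trend on TPM called 1 member, where it called 152 of 15027 genes lower and 165 higher. EdgeR with no filter on low counts called 8, where it called 558 of 31530 genes lower and 666 higher. The count of members also changed when 1 library was left out. RPL23A showed the largest such difference among called members, with a log2 fold change of 0.067 on day 1, -0.015 on day 2, -0.16 on day 3 and -0.134 on day 5. Its late minus early difference was -0.173 (standard error 0.032, adjusted p = 0.00163). RPL22, which also binds viral and cellular RNAs outside the ribosome, had log2 fold changes of 0.07, 0.001, -0.058 and -0.094 on the 4 days, a difference of -0.112 (standard error 0.024, adjusted p = 0.00581). RPL22 had 371.4 and 388.6 CPM in BRD9 KO cells on day 5, against 408 and 404.3 CPM in LacZ cells, and 449.7 and 446.7 CPM in BRD9 KO cells on day 1, against 420.3 and 432.9 CPM in LacZ cells. RPL8 had a difference of 0.001 (adjusted p = 0.991), with log2 fold changes of -0.089 on day 2, -0.099 on day 3 and -0.035 on day 5.

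Within each guide the members sank between days 1 and 5. In BRD9 KO cells 57 fell on day 5 relative to day 1 (74%), where 17.5% of all genes were called lower and 17.5% higher, and 42.6% of abundant ones lower. In LacZ cells 42 fell (54.5%), where 12.9% of all genes were called lower and 12.7% higher, and 34.2% of abundant ones lower. No member was called higher in either guide by edgeR or DESeq2, with 0 higher in BRD9 KO and 2 in LacZ cells at an unadjusted p under 0.05. These comparisons share no library, and 41 members were called in both, 71.9% of the BRD9 KO calls and 97.6% of the LacZ calls. With 74% and 54.5% of the members called, much overlap arises without any agreement. Whether it exceeded that was not tested. The median member stood at -0.146 in BRD9 KO cells and -0.075 in LacZ cells.

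RPS19 changed most among the called members of BRD9 KO cells, with 762.9 and 772.1 CPM on day 5, against 957.6 and 964.9 CPM on day 1. This was -0.325 on the log2 scale (standard error 0.019, adjusted p = 1.43e-10), and in LacZ cells the same comparison gave -0.167 (standard error 0.018, adjusted p = 2.2e-06). RPL3, a large subunit protein at the peptidyl transferase center, was at -0.248 in BRD9 KO cells (adjusted p = 1.89e-10) and -0.173 in LacZ cells (adjusted p = 7.23e-08). RPL13A was at -0.182 in BRD9 KO cells (adjusted p = 3.07e-08) and -0.125 in LacZ cells (adjusted p = 7.36e-06). RPS27 was lowest in LacZ cells at -0.204 (adjusted p = 0.000376) and was at -0.2 in BRD9 KO cells (adjusted p = 0.000305). RPL23A was called in BRD9 KO cells at -0.186 (adjusted p = 0.000145) and stood at 0.015 in LacZ cells (adjusted p = 0.783), and that difference as such was not tested outside the late minus early comparison.

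Ribosomal proteins have many processed pseudogenes, and reads that fit several copies are divided by RSEM's model. The annotation of the files named 802 pseudogenes after 74 of the members. RSEM's posterior standard deviation of the count, the uncertainty from this division, was under 0.5% of the count in 64 members and above the counting error in 4. Among these are RPL21 (11.1%), RPL36A (2.81%) and RPL9 (1.38%), and RPS26, at 8.05%, came close to its counting error of 8.14%. RPL21 kept 371.7 counts per library on average, and 90.3% of the counts of RPL21 and its named pseudogenes went to the pseudogenes. RPL41, RPL9 and RPL23A had 48.7%, 39.3% and 15.7% of such counts at copies. The posterior standard deviation of RPL23A was 1.35% of its count, under its counting error of 1.6%. Adding all named pseudogenes to their members left 51 members lower over days 3 and 5, the same 51.

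Genes tied to the family were followed as lists. Outside the ribosome, 15 other mRNAs with a TOP start were tested, and over days 3 and 5 8 of them fell (53.3%) and 2 rose (13.3%), with a median of -0.062. Over the same days 10.9% of all and 42.3% of abundant genes were lower, and 10.6% of all and 19.7% of abundant genes were higher. PABPC1, the poly(A)-binding protein, fell most on day 5, at 3074.7 and 3097.2 CPM in BRD9 KO cells, against 3838.4 and 3833.2 CPM in LacZ cells (log2 fold change -0.314, standard error 0.012, adjusted p = 9.65e-13). HNRNPA1, a splicing factor, and EIF3F, an initiation factor subunit, stood at -0.278 (adjusted p = 5.31e-10) and -0.236 (adjusted p = 3.21e-06) on day 5. These are larger drops than that of any member called on day 5, and EEF1A1 and EEF2, the elongation factors, were in their range at -0.094 (adjusted p = 1.71e-05) and -0.064 (adjusted p = 0.000313). TPT1 and IPO7 rose by 0.073 and 0.108 on day 5 (adjusted p = 0.00439 and 0.00191). FAU and GNB2L1, which encode ribosomal or ribosome-bound proteins under other names, were at -0.05 and -0.056 over days 3 and 5, and of this pair GNB2L1 was called (adjusted p = 0.00789).

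Of 6 tested paralogs, RPS27L, which p53 can induce, was the 1 called between guides. It had 108.4 and 112.9 CPM in BRD9 KO cells on day 5, against 94.5 and 97.8 CPM in LacZ cells, and 125.3 and 129 CPM in BRD9 KO cells on day 1, against 110.5 and 110 CPM in LacZ cells. RPS27L was thus higher by 0.207 on day 5 and by 0.209 on day 1 (adjusted p = 0.00131 and 0.0204). On day 5 this was opposite to the direction of the members, which on day 1 had no common direction (39 fitted below 0 and 38 above). Of the 4 genes of the p53 response, MDM2 was higher on day 1 by 0.185 (adjusted p = 0.0338) and CDKN1A on day 5 by 0.192 (adjusted p = 0.000154). The list had no common direction on day 5, with 2 fitted below 0 and 2 above, from -0.166 to 0.192 (median 0.012). On day 2, 1 of the 4 was called higher, and on day 3 none was called. Of the 12 tested genes of the mTORC1 and LARP1 axis, EIF4EBP1 rose by 0.278 on day 5 (adjusted p = 0.00266), while RPTOR fell by 0.199 (adjusted p = 0.008) and EIF4EBP2 fell by 0.119 (adjusted p = 0.0185). Of 10 chaperones of ribosomal proteins, RRS1 was higher over days 3 and 5 by 0.139 (adjusted p = 0.0011) and GRWD1 was lower, at -0.092 (adjusted p = 0.038). Of 12 non-coding hosts of snoRNAs, SNHG7 and SNHG3 fell on day 5, at -0.211 and -0.16 (adjusted p = 0.0425 and 0.0391). Between days 1 and 5, 7 of the 12 snoRNA hosts (58.3%) and 5 of the 10 chaperones (50%) rose in each guide and none fell, where 17.5% of all genes were called higher in BRD9 KO cells and 12.7% in LacZ cells.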

How the data were processed

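Total RNA of G401 cells was made into libraries with NEBNext Ultra (the kit the labels name), which does not keep the strand, so reads of overlapping antisense genes cannot be told apart. The authors aligned reads to hg19 with STAR and quantified genes with RSEM; versions were not given in the sources used here. Deposited values used here were RSEM's expected count (35.7% of values above 0 are not whole), rounded to whole numbers, its posterior mean count and posterior standard deviation, and TPM, which the authors' RSEM run scaled by effective length and library. Rounding moved no library total by over 90.1.

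All 16 libraries were fitted together in edgeR 4.0.16 (R 4.3.3) with TMM, filterByExpr (minimum count 10, minimum total 15), 8 group means and glmQLFTest, with p-values adjusted over 15027 genes at 0.05; this left 8 residual degrees of freedom, at a common biological coefficient of variation of 0.023. CPM is TMM-normalized. Standard errors are the absolute log2 fold change over the root of F. Alternatives used DESeq2 1.42.0, limma 3.58.1 (log2 of TPM plus 1), other filters and scalings, a length offset, replicate blocks and each library left out. Coordinates are GENCODE v44 spans on GRCh37, matched by Ensembl ID for 76 members. The pipeline was tested on simulated data. Named members were the smallest p per comparison and direction, the most abundant uncalled, the highest and lowest by TPM, the most uncertain, and 6 with known roles. The members and lists were chosen with earlier results of these data known. Some members and listed genes are not reported here by name.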

Additional observations from a re-analysis of the deposited data

Results flagged for a closer look

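In 16 members the effect of BRD9 deletion differed between days 3 and 5 and days 1 and 2, by a test of the difference itself (edgeR, adjusted p under 0.05). They are 20.8% of the members, beside 4.03% of all genes and 21.5% of abundant genes called in this direction, so their share is close to that of abundant genes. Among them, the differences in log2 fold change were -0.173 for RPL23A, -0.112 for RPL22, -0.097 for RPS23, -0.091 for RPS19, -0.089 for RPS3A, -0.083 for RPLP0 and -0.08 for RPS15A. They were -0.077 for RPL17, -0.076 for RPS18, -0.074 for RPS6, -0.073 for RPL5, -0.068 for RPL13 and for RPL14, -0.067 for RPL4 and -0.066 for RPL6. All 16 are more negative on the later days.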

How the results depend on the processing

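The members called with DESeq2's size factors, with TMM from genes other than members and mitochondrial ones, with a filter of 1 CPM in 2 libraries, with posterior mean counts or with pseudogenes added stayed within 1.5 times the main count in each comparison. On day 1 the count was 2 with no filter and 1 with the length offset, alone or with the replicate block within days, against 0. On day 2 it was 8 with DESeq2, 10 with no filter, 0 with limma-trend on TPM, 3 with the length offset, 3 with the block and offset, 3 with only that day's libraries and 9 with the block within days, against 5. On day 3 it was 1 with limma-trend, 10 with the length offset and 12 with block and offset, against 27. Limma-trend gave 17 on day 5, 22 over days 3 and 5, 1 for late minus early and 23 for LacZ over time, against 31, 51, 16 and 42. Over all 15027 genes limma-trend called 205 lower and 207 higher on day 3, and 449 lower and 545 higher on day 5. The main fit called 879 and 690 on day 3, and 1119 and 1131 on day 5. With no filter late minus early had 8. An added threshold of 0.2 left 0 on days 2, 3 and 5, over days 3 and 5 and for late minus early, 1 for LacZ over time and 16 for BRD9 KO over time. Leaving out 1 library gave 0 to 0 on day 1, 0 to 7 on day 2, 8 to 28 on day 3, 21 to 33 on day 5, 42 to 52 over days 3 and 5, 7 to 18 for late minus early, 32 to 44 for LacZ and 45 to 60 for BRD9 KO over time; the lone sample left in a group is assumed to vary like the others. The cause of these changes was not tested.

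The main fit did not pair libraries by replicate number. Deviations from the group means in same-numbered BRD9 KO and LacZ libraries had correlations of -0.008, -0.037, -0.022 and -0.014 (days 1, 2, 3 and 5, all genes). Those over 6307 genes with a mean log2 CPM above 5 were -0.038, -0.119, 0.098 and 0.178, and those over the members -0.343, -0.69, -0.118 and 0.246. Such a correlation does not register a shift that all members share, so it cannot decide whether same-numbered libraries were paired. The replicate block within days gave 31 members on day 3, 38 on day 5 and 52 over days 3 and 5, and a block across days 35, 36 and 52. The 41 named pairs of member and comparison were all called in the main fit and were named for their small p there. Their stability is therefore partly built in and does not extend to the other members. With up to 29 alternatives, 1139 of 1183 values kept direction and call, and 44 kept direction and lost the call. None reversed, 26 pairs were called throughout, and limma-trend accounted for 15 of the losses. Over all 77 members, 21 of the 51 calls over days 3 and 5 were lost with the length offset, and 4 members were then called higher. Members at the lowest counts, such as RPS26 with 156.8 counts per library, had standard errors near 0.1 and small changes of them were not detectable.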

Other observations

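Between the 2 libraries of a group the members also moved together. Replicate 2 was above replicate 1 in 67, 65, 63 and 63 of the 77 members in BRD9 KO cells on days 1, 2, 3 and 5, and in 58, 62, 37 and 47 members in LacZ cells, with median log2 differences of 0.028, 0.031, 0.032 and 0.024 in BRD9 KO cells and 0.019, 0.024, -0.002 and 0.011 in LacZ cells. These shifts between replicates stand beside a median difference between guides of -0.058 on day 3 and -0.067 on day 5. The share of counts from mitochondrially encoded genes was 6.642% ± 0.0633 in BRD9 KO and 6.355% ± 0.0231 in LacZ cells on day 1, and 5.754% ± 0.106 in BRD9 KO and 5.833% ± 0.0407 in LacZ cells on day 5 (SD, n = 2 each).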
